A study of Mus musculus with 4 samples.

Results

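The cytoplasmic ribosomal protein genes of mouse were taken from RNA-seq of embryonic stem cells (ESCs) in G1-phase and compared between culture in serum and culture in 2i. Members were chosen by symbol alone, as protein-coding genes named Rpl or Rps with a number, Rpsa, or Rplp0 to Rplp2, leaving out pseudogenes and the S6 kinases, a rule that uses no measured value. The annotation (GENCODE vM1, mouse build mm9) holds 80 such genes, and 78 of them are among the 14533 genes measured. These 78 comprise 47 genes of the large subunit and 31 of the small subunit. Rpl3l and Rps27 were not analysed here.

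The 4 libraries are 2 of serum ESCs and 2 of 2i ESCs, all from mouse ESCs fully adapted to their medium and then sorted. Both media hold the cytokine LIF, which keeps ESCs undifferentiated. 2i is a medium with a pair of small-molecule inhibitors, PD0325901 against the ERK pathway and CHIR99021 against GSK3. The sample labels place the sorted cells in late G1-phase and the series text in early G1-phase, and the labels were followed. Neither genotype nor cell line is given in the labels, and the study sorted cell-cycle phases with FUCCI fluorescent reporters. The values are normalized counts, read counts of each gene divided by a size factor for the library, and 18939401 to 26570098 whole reads per library were recovered from them. All 8 stem cell markers checked, among them Pou5f1 and Nanog, were present, with summed normalized counts of 57735 to 80849 in serum and 71035 to 92748 in 2i. Of 7 fibroblast markers only Col1a1 and Thy1 had a row, with summed counts of 58.2 to 230.1, and their part in any result was not tested.

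Each cytoplasmic ribosome holds a single copy of almost every ribosomal protein, divided between a large subunit that forms peptide bonds and a small subunit that decodes the mRNA, so cells make these proteins in matched amounts. Their mRNAs are among the most abundant of a growing cell, and most begin with a cytosine followed by a run of pyrimidines, the 5′ terminal oligopyrimidine (TOP) motif through which mTORC1 signalling controls their translation. Because the mRNAs are abundant and short, mammalian genomes have collected many retrotransposed copies of them, most annotated as pseudogenes and some still nearly identical to the parent gene.

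Promoter sequence of RefSeq (build GRCm38.p6) was matched to 57 of the 78 genes by symbol. The letters CTTTC, a short pyrimidine tract, were found on the coding strand between 15 bases before and 15 bases after the annotated start in 15 of the 57 (26.3%), against 3.97% of all 27025 promoters. GAAAG, the same tract on the other strand, was in 3.51% of the members and in 3.43% of all promoters. CGGAAG, the core recognised by ETS factors, was present on either strand of the 300-base promoter in 68.4% of the members and 17.2% of all promoters. In the same 300 bases, on either strand, TATAAA was in 8.77% of the members against 14.2% of all promoters, and CACGTG, which reads alike on both strands, in 8.77% against 7.24%. None of these motifs can overlap in full with another, while CTTTC and GAAAG are the 2 strands of 1 word. These matches describe the letters in a window and no binding was measured. In some members, such as Rps15a and Rpl13, the CTTTC tract lay before the annotated start. The 4 windows below, each of 30 bases with the annotated start after base 15, are shown for where the tract lies, in capitals, at the start itself in Rplp2 and Rpl38 and further in for Rpl18 and Rpl12:
Rplp2, chr7:141447636-141447665, plus strand: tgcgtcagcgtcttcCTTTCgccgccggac
Rpl38, chr11:114668565-114668594, plus strand: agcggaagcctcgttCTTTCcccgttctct
Rpl18, chr7:45718056-45718085, plus strand: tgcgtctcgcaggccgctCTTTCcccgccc
Rpl12, chr2:32961697-32961726, plus strand: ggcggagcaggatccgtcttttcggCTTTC

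As a class, ribosomal protein mRNAs were most abundant in 1 of the 4 libraries, 2i replicate 2. Of the reads recovered over all genes measured, the 78 genes took 2.47% and 3.95% in the serum libraries (replicates 1 and 2 in that order), while in 2i they took 3.44% and 7.51%. The 95% Wilson intervals of these shares reach at most 0.0114 percentage points to either side and cover counting error only. They leave out error in how reads were assigned to genes of like sequence. As a share of reads on protein-coding genes alone, the values were 5.26% and 5.18% in serum against 5.94% and 11.3% in 2i. The median normalized count over the 78 genes was 7452 and 8173 in serum against 7860 and 15926 in 2i. The 2 serum libraries and 2i replicate 1 thus lay close together, and 2i replicate 2 lay apart with about 2 times their median. In 58 of the 78 genes 2i replicate 2 had the highest count of the 4 libraries. In these bulk samples fewer cells of a kind and less of an RNA per cell cannot be told apart.

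**Figure D1:**
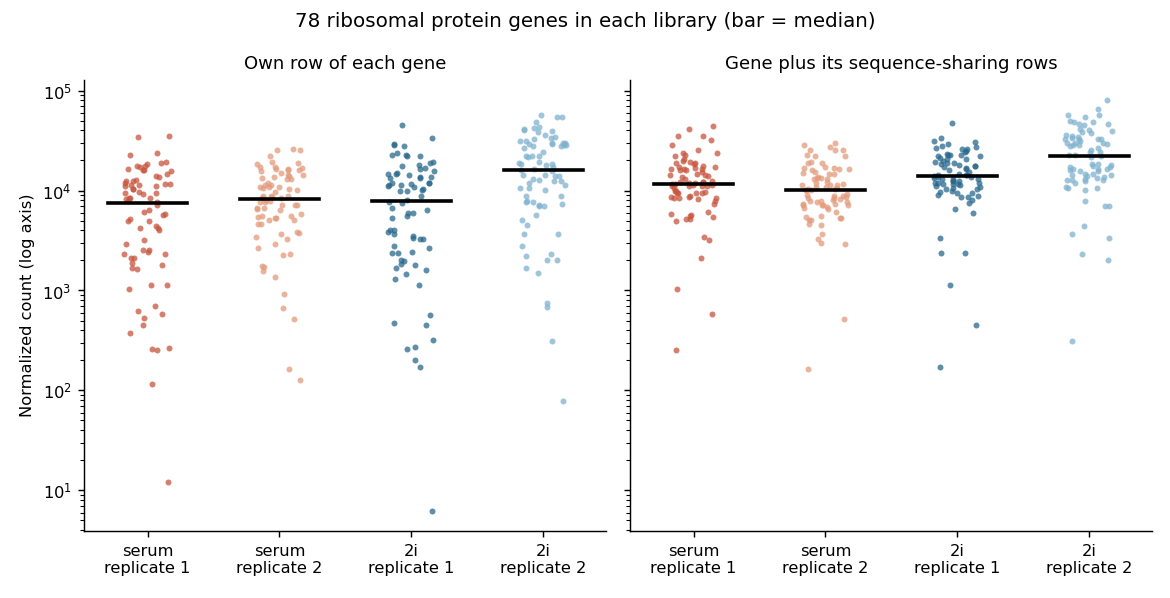
Normalized counts (log axis) of the 78 ribosomal protein genes in each library, 1 point per gene, with the median as a bar. On the left each gene has its own row, with medians of 7452 and 8173 in serum against 7860 and 15926 in 2i, and on the right the rows of other genes that share at least 10% of its sequence are added, which brings most of the low points up to the others.

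Set against all genes tested, ribosomal protein genes leaned towards lower values in serum. The log2 fold change, serum over 2i on the log2(normalized count + 1) scale and called the log2 difference with its SE (± SE, n = 2 per condition) for single genes, had a median of -0.51 over the 78 genes, which is 1.43-fold higher in 2i at the median, against 0.0047 over all 13005 genes tested. It was below 0 in 70 of the 78 genes, where 49.7% of all genes tested were below 0, and above 0 in 8. Both serum libraries lay below both 2i libraries in 25 members (32.1%), against 19.4% of all genes tested, and both lay above in none, against 20.5% of all genes. No member passed the test at an adjusted p under 0.05 and a 2-fold difference (limma with Benjamini-Hochberg adjustment over all genes), where 0.0154% of all genes passed in the direction of higher values in 2i and 0 genes in the other. At an unadjusted p under 0.05, 2 members were lower in serum (Rpl11 and Rpl36), against a background of 3.0% of all genes, and 0 members were higher, against 2.97% of all genes. DESeq2 on the recovered reads put Rpl36 past both thresholds (adjusted p = 0.0237) and had 16 members lower in serum at an unadjusted p under 0.05 (20.5%, where 7.79% of all genes were in the same fit), whereas edgeR had 1 (1.28%, where 3.81% of all genes were) and called 0.

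The lean towards 2i in the single rows rested on 2i replicate 2. Without it the median log2 fold change was 0.01 and 41 of 78 genes were higher in serum. Over all 13005 genes tested the median was then 0.024, with 6644 higher in serum. Leaving out 2i replicate 1 gave a family median of -1.15, leaving out serum replicate 1 gave -0.42 and leaving out serum replicate 2 gave -0.73. Between single libraries, the median difference was -0.18 for serum replicate 1 over 2i replicate 1 and 0.05 for serum replicate 2 over 2i replicate 1, against -1.29 and -0.96 over 2i replicate 2. Within a condition, replicate 2 differed from replicate 1 by a median of 0.27 in serum and 1.07 in 2i, so the 2 replicates of 2i differed by more than the conditions did. Quantile normalization, which forces the 4 libraries onto 1 distribution, left 58 of the 78 genes lower in serum with a median of -0.32.

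The order of the 2 subunits changed with the library left out. The median log2 fold change was -0.44 over the 47 large subunit genes, of which 6 were higher in serum, and -0.58 over the 31 small subunit genes, of which 2 were higher. The spread of the per-library medians between replicates was 0.74 (SD) for the large and 0.29 for the small subunit on the same scale. Both subunits were measured in the same libraries, so these SDs do not measure the spread of the difference between the subunits. Large before small, the medians were -0.32 and -0.51 without serum replicate 1, and -0.75 and -0.70 without serum replicate 2. They were -1.17 and -1.07 without 2i replicate 1. Without 2i replicate 2 both medians were above 0, at 0.15 and 0.0046.

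Many of the single values cannot be read alone, because rows of other genes carry the same sequence. The reads are 43 bases long, and MMSeq, the quantifier used, divides a read that matches several transcripts among them. All annotated transcripts of each gene were therefore cut into 43-base words, and 53 of the 78 members had at least 1 other measured gene that held 10% or more of their words. There were 115 such genes, of which 69 were annotated as pseudogenes, 41 as protein-coding and 5 as another type. Most were retrotransposed copies and a few were overlapping neighbours such as Fam69a at Rpl5. Only 9 members had 95% or more of their words to themselves.

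Rps6 and Gm13654 show how close the copies can be. Rps6, the small subunit protein that S6 kinases phosphorylate, lies on chromosome 4 (mm9 chr4:86500564-86503316, minus strand), and Gm13654 is a pseudogene on chromosome 2 (chr2:75029091-75029887, minus strand). Their coding sequences are identical over 747 bases, so that a read of 43 bases from there fits both. Rpl11, on the same chromosome as Rps6, and Gm10288 (chr3:146501775-146502311, minus strand), annotated as protein-coding, are 99.81% identical over 534 bases, and within that stretch only reads across the differing base, in capitals here, tell them apart. Over all annotated transcripts of Rpl11, 81.7% of the 43-base words were found in no other gene:
Rps6, chr4:86502721-86502763, minus strand: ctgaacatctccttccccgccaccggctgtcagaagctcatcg
Gm13654, chr2:75029831-75029873, minus strand: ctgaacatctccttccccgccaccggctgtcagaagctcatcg
Rpl11, chr4:135608550-135608592, minus strand: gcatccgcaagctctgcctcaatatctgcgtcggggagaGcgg
Gm10288, chr3:146502223-146502265, minus strand: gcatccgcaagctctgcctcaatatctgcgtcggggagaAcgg

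The Rps6 row held 622 and 22401 normalized counts in serum, replicate 1 first as throughout, against 1827 and 13130 in 2i. Gm13654 held 21605 and 0 in serum against 20234 and 36755 in 2i. The 2 rows thus exchanged their counts between serum replicates, and the sum over Rps6 and its sharing rows was 22228 and 22426 in serum against 22065 and 49940 in 2i. Both serum sums and the sum of 2i replicate 1 were close to each other, and 2i replicate 2 stood apart.

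Rps12, a small subunit protein, had 268 and 5776 counts in serum against 321 and 11260 in 2i. Rps12-ps3, whose coding sequence is identical over 396 bases, had 9515 and 4559 in serum against 9405 and 23444 in 2i. Together with Rps12-ps5, which held at most 66.0 counts, they summed to 9795 and 10358 in serum against 9728 and 34769 in 2i. Again 3 libraries were close and 2i replicate 2 was high.

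Rpl17, a protein at the exit of the peptide tunnel, had 454 and 9704 counts in serum against 257 and 22372 in 2i, the largest difference between replicates of any member. Its copy Rpl17-ps5 held 7312 and 349 counts in serum against 11507 and 218 in 2i, the reverse order. With all 5 sharing rows, Rpl17 summed to 10655 and 10126 in serum against 14186 and 22714 in 2i, so the serum libraries were both below the 2i libraries in the sum and not in the single row.

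**Figure D2:**
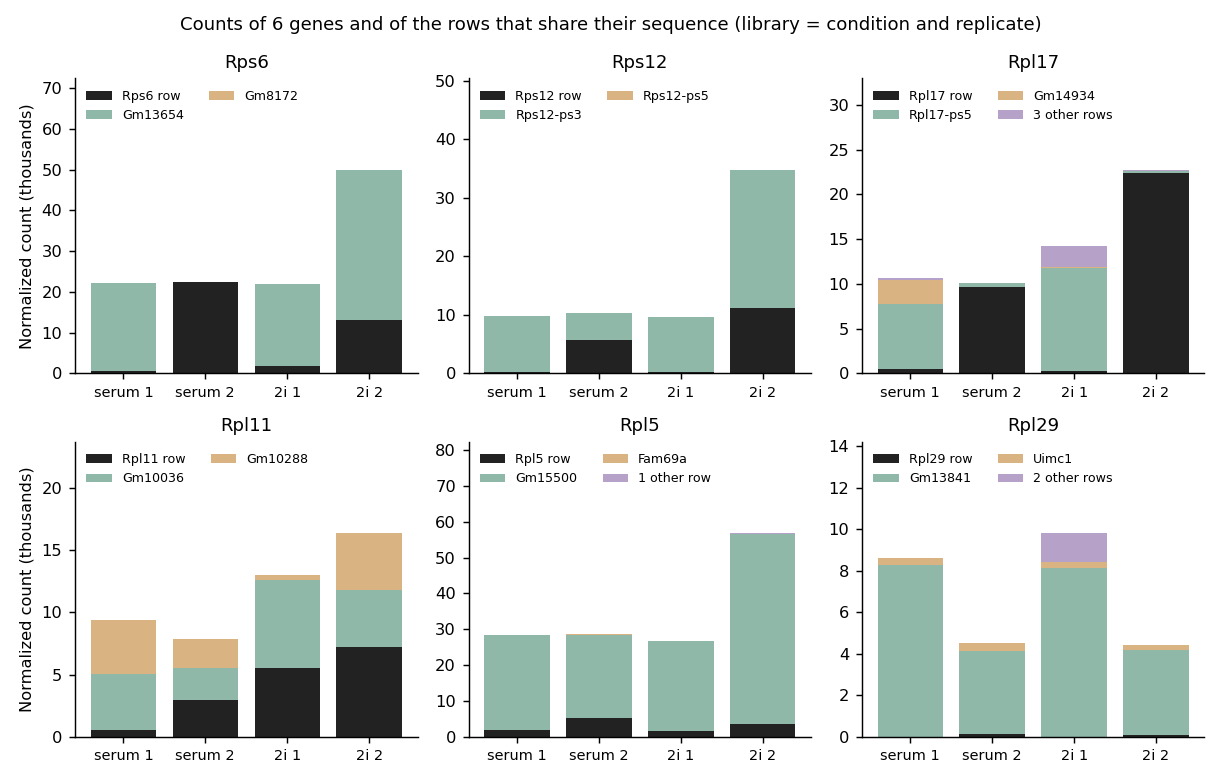
Stacked normalized counts (the axis counts in units of 1000) of 6 ribosomal protein genes (black) and of the rows sharing at least 10% of their 43-base words (colours), for each condition and replicate. For Rps6 the black part goes from 622 in serum replicate 1 to 22401 in serum replicate 2 while the whole bar stays at 22228 and 22426. The 6 genes were chosen after their values were seen.

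The same exchange was found across the family. The member's own share of its sum was higher in replicate 2 than in replicate 1 in both conditions for 37 of the 53 members with sharing rows, and lower in both for 6. The median own share was 50.8% and 90.7% in serum against 39.6% and 83.5% in 2i. Over all members, 61.3% and 81.0% of the reads of members and sharing rows were on the members in serum, against 63.4% and 76.2% in 2i. Which step produced this division was not tested.

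Summing each member with its sharing rows made the family more even. Within a library, the ratio of the 90th to the 10th percentile of the count per kilobase of transcript was 37.3 and 10.2 in serum against 46.3 and 23.7 in 2i for the single rows. For the sums it was 4.47 and 4.15 in serum against 5.46 and 7.28 in 2i. Members that differed by more than 4-fold between replicates went from 11 to 1 in serum and from 17 to 6 in 2i. Adding rows can only raise a count, so part of this change was fixed in advance. Sums with unrelated rows were not made for comparison.

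With the sums, 76 of the 78 members were lower in serum (against 49.8% of all genes in the same table) and the median log2 fold change was -0.62. Both serum libraries lay below both 2i libraries in 40 members (51.3%, against 19.5% of all genes in the same table) and both above in 1 (against 20.5% of all genes). All 47 large subunit sums and 29 of 31 small subunit sums were lower in serum, with medians of -0.66 and -0.58. No sum passed the adjusted threshold (limma), and 3 were lower (3.85%) and 1 higher (1.28%) at an unadjusted p under 0.05, near the 3.03% and 3.01% of all genes. The share of reads on members and sharing rows was 4.02% and 4.88% in serum against 5.42% and 9.85% in 2i, so that on this measure both serum libraries lay below both 2i libraries. The difference between serum and 2i replicate 1 was still small, with median differences of -0.20 and -0.48 for the 2 serum replicates, and 28 and 20 of 78 members higher in serum. Without 2i replicate 2 the median over the sums was -0.29, with 22 members higher in serum, and without 2i replicate 1 it was -0.94.

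The 25 members without such rows gave the same picture from single rows. Their median log2 fold change was -0.74, all 25 were below 0 (against 49.7% of all genes) and 12 had both serum libraries below both 2i libraries (48.0%, against 19.4% of all genes). Leaving out 2i replicate 2 brought their median to -0.18 with 9 of 25 higher in serum. Being without such rows means that no other measured gene held 10% or more of the words. Rpl13a, 1 of the 25, had only 58.4% of its words to itself.

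Among the 25, Rps9 shared no 43-base word with another gene and had the smallest replicate difference of all members. Rps9, a small subunit protein at the mRNA entry channel, had 9503 and 8851 counts in serum against 16607 and 18526 in 2i. Both serum libraries were thus below both 2i libraries, with a log2 difference of -0.94 ± 0.52. Rps21 had 7827 and 7740 counts in serum against 11869 and 14240 in 2i, and a log2 difference of -0.74 ± 0.50. The adjusted p was 0.753 for Rps9 and 0.759 for Rps21 (limma), and the 2 genes differed between replicates by 0.130 and 0.139 on average on the log2 scale. For these genes, in contrast to the family median, the 2i replicates were close to each other.

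Rpl4, a large subunit protein lining the peptide tunnel and also free of shared words, did not follow them. It had 35037 and 25481 counts in serum against 33565 and 28336 in 2i, and the groups overlapped (log2 difference -0.05 ± 0.63). Rpl7 and Rps2, with Rpl4 among the 5 members of highest mean count, repeated the pattern of the medians. Rpl7 had 17568 and 25500 counts in serum against 14183 and 57468 in 2i, a log2 difference of -0.43 ± 0.83, and the 2i libraries lay on either side of the serum libraries. Rps2 had 18929 and 25852 in serum against 16707 and 54615 in 2i, a log2 difference of -0.45 ± 0.77, and 10 sharing rows, the most of any member. Rps4x, the X-linked small subunit protein, had 17305 and 19145 in serum against 27692 and 48555 in 2i, without overlap (log2 difference -1.01 ± 0.63).

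The stalk proteins, which recruit the translation factors to the large subunit, were lower in serum in all 3 cases. The same direction held for 70 of the 78 members. Rplp0, the base of the stalk, had 16170 and 16274 counts in serum against 22309 and 43222 in 2i, a log2 difference of -0.94 ± 0.63. Rplp1 had 34538 and 7924 in serum against 45755 and 41865 in 2i, a log2 difference of -1.40 ± 0.84, and serum replicate 2 alone was far from the other 3 libraries. Rplp2 had 5812 and 7189 in serum against 11905 and 12358 in 2i, a log2 difference of -0.91 ± 0.49. None of the 3 overlapped between conditions, with serum below 2i, as in 32.1% of members and 19.4% of all genes tested. The adjusted p of the 3 genes was 0.753 to 0.759 (limma). With sharing rows the log2 differences were -0.81, -0.99 and -0.90, and the sums of Rplp0 overlapped between conditions (31851 and 25225 in serum against 30904 and 80071 in 2i). Per kilobase of transcript, Rplp1 had the highest mean normalized count of all members (65698), where Rplp0 had 18037 and Rplp2 9664.

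Rpl5 and Rpl11, which bind 5S rRNA and, when free of ribosomes, inhibit the p53 ligase Mdm2, pointed in opposite directions as single rows. Rpl11 had 527 and 2918 counts in serum against 5548 and 7178 in 2i, the largest difference of any member at -2.35 on the log2 scale (SE 0.82, 95% interval -4.31 to -0.38), with an unadjusted p of 0.0264 and an adjusted p of 0.753 (limma). Its copies Gm10036 and Gm10288 held 4523 and 4356 counts in serum replicate 1, where the Rpl11 row was lowest. Summed with them, Rpl11 had 9407 and 7827 in serum against 13031 and 16345 in 2i, and the log2 difference became -0.77 ± 0.50. Rpl5 had 1819 and 5119 in serum against 1616 and 3698 in 2i, with a log2 difference of 0.32 ± 0.68 and overlapping groups. Gm15500 held most of its sum, with 26465 and 23372 counts in serum against 25005 and 52899 in 2i, and the summed log2 difference was -0.45 ± 0.66. The sums of Rpl5 overlapped between conditions (28543 and 28791 in serum against 26838 and 56771 in 2i), with 2i replicate 2 alone above the serum libraries. The summed log2 differences of both 5S-binding proteins were thus below 0, as were those of the other large subunit genes.

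Rpl36, the member with the smallest p, kept its difference with the copies added. It had 4252 and 2333 counts in serum against 10094 and 12499 in 2i, a log2 difference of -1.83 ± 0.53 (95% interval -3.10 to -0.56), with an unadjusted p of 0.0119 and an adjusted p of 0.753 (limma). The sum with Gm4604 and Rpl36-ps2 gave 5161 and 2972 against 12545 and 14541 and a log2 fold change of -1.79. Only 5.80% of the 43-base words of Rpl36 were found in no other gene.

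Rpl39 and Rpl12 completed the 5 largest differences towards 2i. Rpl39, a short protein of the peptide tunnel, had 2305 and 3416 counts in serum against 3889 and 18732 in 2i, a log2 difference of -1.60 ± 0.79 in which 2i replicate 2 stood apart. Rpl12, a protein at the base of the stalk, had 11334 and 10702 in serum against 28567 and 22094 in 2i, a log2 difference of -1.19 ± 0.55, and both pairs of replicates were close. In all, 9 members had a log2 fold change below -1 (11.5%, against 15.9% of all genes tested), so large single differences were no more frequent here than among all genes, unlike values below 0.

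In 25 members (32.1%, against 19.4% of all genes tested) both serum libraries lay below both 2i libraries. They were 15 of the large and 10 of the small subunit. Among them were Rpl11, Rpl12, Rpl13, Rpl13a, Rpl18, Rpl22, Rpl23, Rpl26, Rpl32, Rpl36, Rpl36a, Rpl39, Rplp0, Rplp1 and Rplp2 of the large subunit, and Rps4x, Rps9, Rps19, Rps20, Rps21, Rps25, Rps26 and Rps27l of the small subunit. Rps27l is a stress-responsive paralog of Rps27.

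The 8 single rows with higher values in serum had log2 fold changes of at most 0.84 and all belonged to members with sharing rows. Rps16 had 4204 and 8539 counts in serum against 1972 and 5646 in 2i, the largest value above 0 (log2 difference 0.84 ± 0.68, adjusted p = 0.774 in limma), and its sum with Rps16-ps2 gave 0.01. Rpl29 was nearly absent, with 12.01 and 127 counts in serum against 6.23 and 77.6 in 2i (log2 difference 0.78 ± 1.81), while its copy Gm13841, 99.38% identical over 480 bases, held 8262 and 4017 in serum against 8126 and 4112 in 2i. The sum gave -0.08. Rpl21, at 1904 and 8881 in serum against 1294 and 7816 in 2i, went from a log2 difference of 0.37 ± 1.05 to -0.22. Rpl27, at 2541 and 1370 in serum against 1446 and 1492 in 2i, went from a log2 difference of 0.34 ± 0.48 to -0.89. In each of these 4 the groups overlapped as single rows.

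Rps27a, which is made as a fusion with ubiquitin, was the exception among the sums. Its row had 695 and 3282 counts in serum against 1123 and 2337 in 2i, a log2 difference of -0.10 ± 0.81. Gm8430, a pseudogene with 21.8% of its words, held 4471 counts in serum replicate 1 and 0 in the other 3 libraries, and with it the log2 difference was 1.35 ± 0.54 (unadjusted p = 0.0456, adjusted p = 0.749 in limma). No other sum had both serum libraries above both 2i libraries.

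Rpsa, the small subunit protein also known as the laminin receptor, had 4453 and 14235 counts in serum against 3245 and 30031 in 2i, low in replicate 1 of both conditions (log2 difference -0.31 ± 1.12). Its copy Rpsa-ps2 had 14901 and 5.83 in serum against 4924 and 13.6 in 2i, high in replicate 1 of both. The sum over 3 rows was 44631 and 22199 in serum against 27308 and 46585 in 2i, a log2 difference of -0.18 ± 0.69, and the groups still overlapped.

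The members of lowest count were of 2 kinds. Rps13 and Rpl34 were low as rows and not as sums. Rps13 had 117 and 926 counts in serum against 203 and 754 in 2i (log2 difference -0.25 ± 1.08), and its sum reached 8619 and 7163 in serum against 13987 and 10784 in 2i. Rpl34 had 261 and 668 in serum against 269 and 677 in 2i (log2 difference -0.03 ± 0.68), and its sum reached 8482 and 5073 in serum against 11578 and 11942 in 2i. The paralogs Rpl39l and Rpl10l, known for expression in testis, stayed low. Rpl39l, which shared no word with another gene, had 254 and 163 counts in serum against 172 and 309 in 2i (log2 difference -0.18 ± 0.56). Rpl10l had 579 and 520 in serum against 451 and 2016 in 2i (log2 difference -0.80 ± 0.73), with 2i replicate 2 alone above the rest. Rps27l had 3208 and 5256 in serum against 5991 and 6987 in 2i, without overlap (log2 difference -0.66 ± 0.50). Per kilobase, Rpl39l stood at 279 counts against 11578 for Rpl39.

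**Figure D3:**
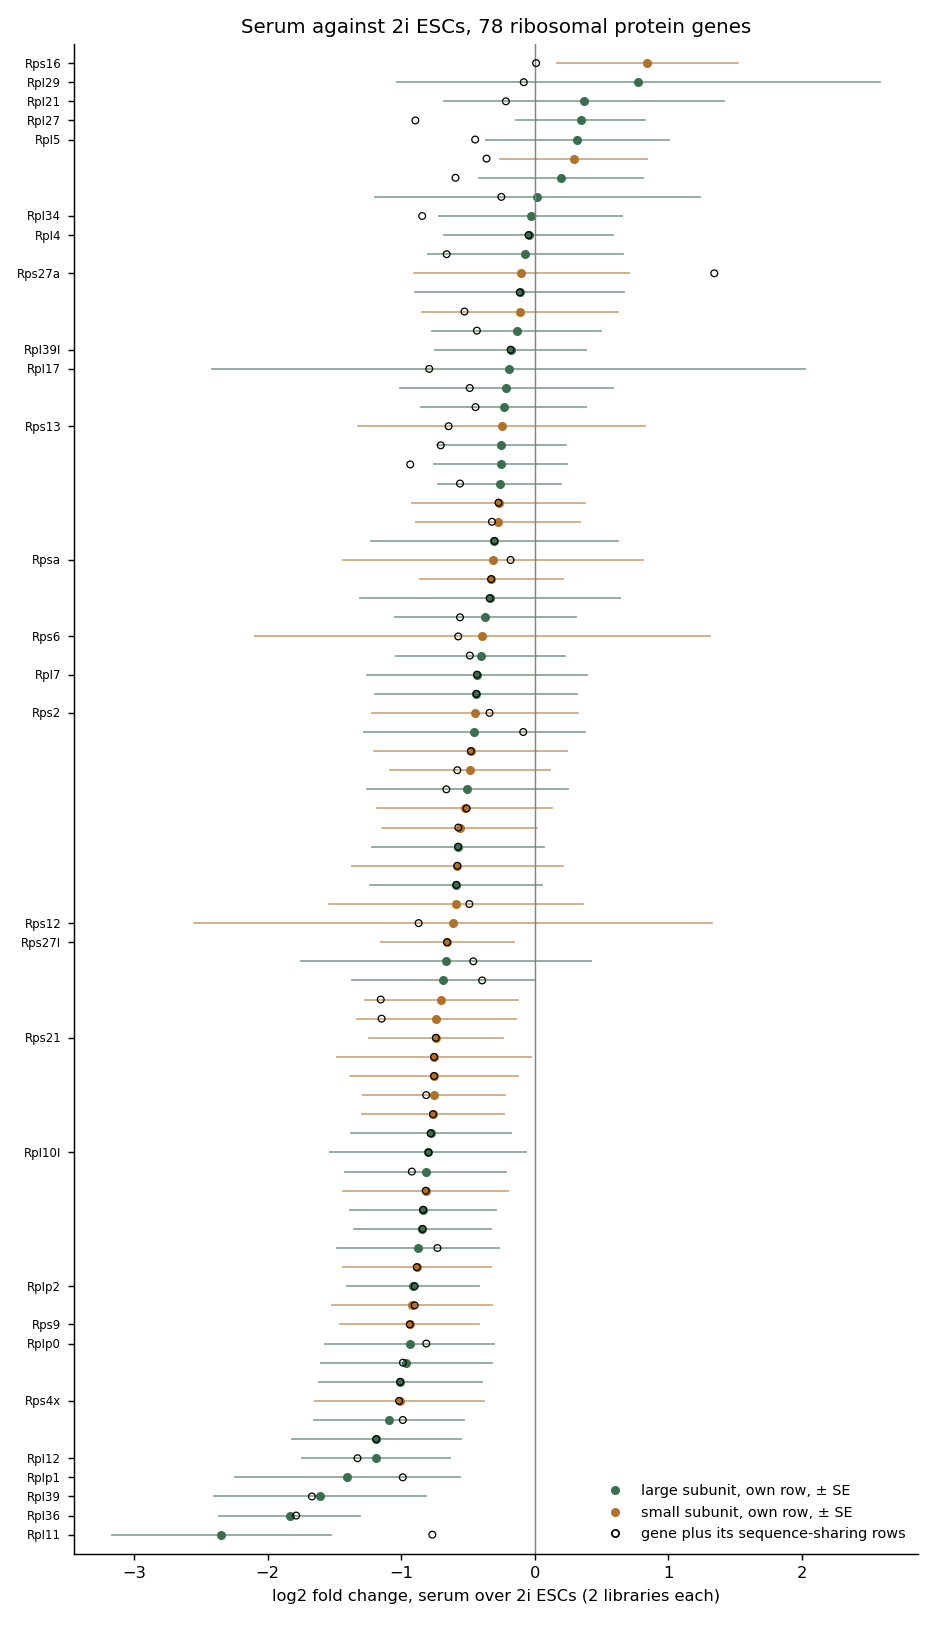
Log2 fold change, serum over 2i, of each of the 78 members from its own row (filled, green for the large and orange for the small subunit, with the SE of the limma fit) and after adding the rows that share its sequence (open circles), with the names of the genes described in the text. The filled points run from -2.35 for Rpl11 to 0.84 for Rps16 with 70 below 0, and all but 2 open circles lie below 0.

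Other parts of the translation machinery did not all lean the same way. Sharing rows were sought only for the members of the family, so the genes of this and the following lists were compared as single rows. The 20 other TOP genes listed, elongation and initiation factors among them, had a median log2 fold change of 0.0020, with 10 higher and 10 lower in serum and 0 under an unadjusted p of 0.05. The elongation factor Eef2 had 28901 and 22648 counts in serum against 39659 and 60962 in 2i (log2 difference -0.94 ± 0.66). Eef1a1, which brings aminoacyl-tRNA to the ribosome, had 126620 and 141777 in serum against 166033 and 273240 in 2i (log2 difference -0.67 ± 0.96). Gnb2l1, the ribosome-bound scaffold RACK1, had 25863 and 21448 in serum against 35070 and 85041 in 2i (log2 difference -1.21 ± 0.73). For each of the 3 the serum libraries lay below the 2i libraries. That held for 19.4% of all genes tested, and these 3 were named out of the 20. Hnrnpa1 was at the other end, with 2699 and 2316 in serum against 1973 and 327 in 2i (log2 difference 1.64 ± 0.84).

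Fau, which encodes a small subunit protein fused to a ubiquitin-like domain, lies outside the naming rule. Fau had 4.002 and 2063 counts in serum against 44.6 and 954 in 2i (log2 difference -1.04 ± 2.77), low in replicate 1 of both conditions. Of 5 paralogs outside the rule, such as Rpl22l1, 4 were tested, all 4 with values below 0 and a median of -0.13.

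Regulators and chaperones had more values above 0 than below, where 6536 of all 13005 genes tested were above 0. Of 16 genes that act on TOP mRNAs, mTORC1 or ribosomal protein transcription, 11 were higher in serum, the median was 0.40 and 2 were under an unadjusted p of 0.05, both higher, where 2.97% of all genes tested were higher at that p. Myc, a transcription factor that drives ribosome synthesis, had 131 and 657 counts in serum against 7.27 and 4.85 in 2i (log2 difference 5.41 ± 1.17, adjusted p = 0.753 in limma). The S6 kinase Rps6kb1 had 1347 and 2077 in serum against 792 and 566 in 2i (log2 difference 1.32 ± 0.47). Another S6 kinase, Rps6kb2, went the other way at lower counts, with 46.0 and 140 in serum against 154 and 199 in 2i (log2 difference -1.11 ± 0.74). Mtor had 1743 and 1243 in serum against 1274 and 979 in 2i (log2 difference 0.40 ± 0.45), with overlap. All 8 tested of 9 chaperones that escort newly made ribosomal proteins were above 0, with a median of 0.57 and 1 under an unadjusted p of 0.05, against the same 2.97% of all genes. That gene, Ltv1, which accompanies Rps3, had 1026 and 1218 counts in serum against 530 and 472 in 2i (log2 difference 1.16 ± 0.42). Bccip, a chaperone of Rpl23, had 1337 and 1759 in serum against 772 and 769 in 2i (log2 difference 0.99 ± 0.43). For Ltv1 and Bccip the serum libraries lay above the 2i libraries, as in 20.5% of all genes tested. Grwd1, Aamp and Tsr2 were nearest to 0, with log2 differences of 0.06 ± 0.74, 0.18 ± 0.60 and 0.20 ± 0.47, and their groups overlapped.

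The mitochondrial ribosome gave a different distribution from the cytoplasmic ribosome. Its 75 genes had a median log2 fold change of 0.15, with 42 higher and 33 lower in serum, 1 under an unadjusted p of 0.05 and none under an adjusted p of 0.05 (limma). Their median normalized count was 743 and 666 in serum against 500 and 793 in 2i, so 2i replicate 2 was again the highest library, by less than for the cytoplasmic genes. No test of the difference between these lists was made.

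**Figure D4:**
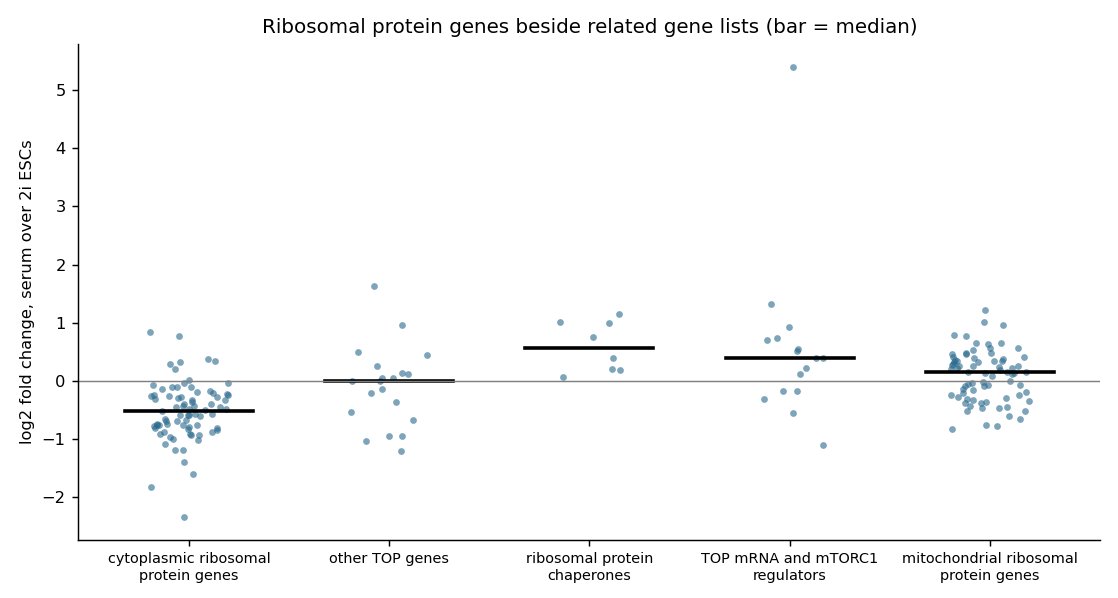
Log2 fold change, serum over 2i, of each gene in 5 lists, 1 point per gene from its own row without sharing rows, with the median as a bar. The cytoplasmic ribosomal protein genes have a median of -0.51, the other TOP genes 0.0020, the chaperones 0.57, the regulators 0.40 with Myc at 5.41, and the mitochondrial ribosomal protein genes 0.15.

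**Figure D5:**
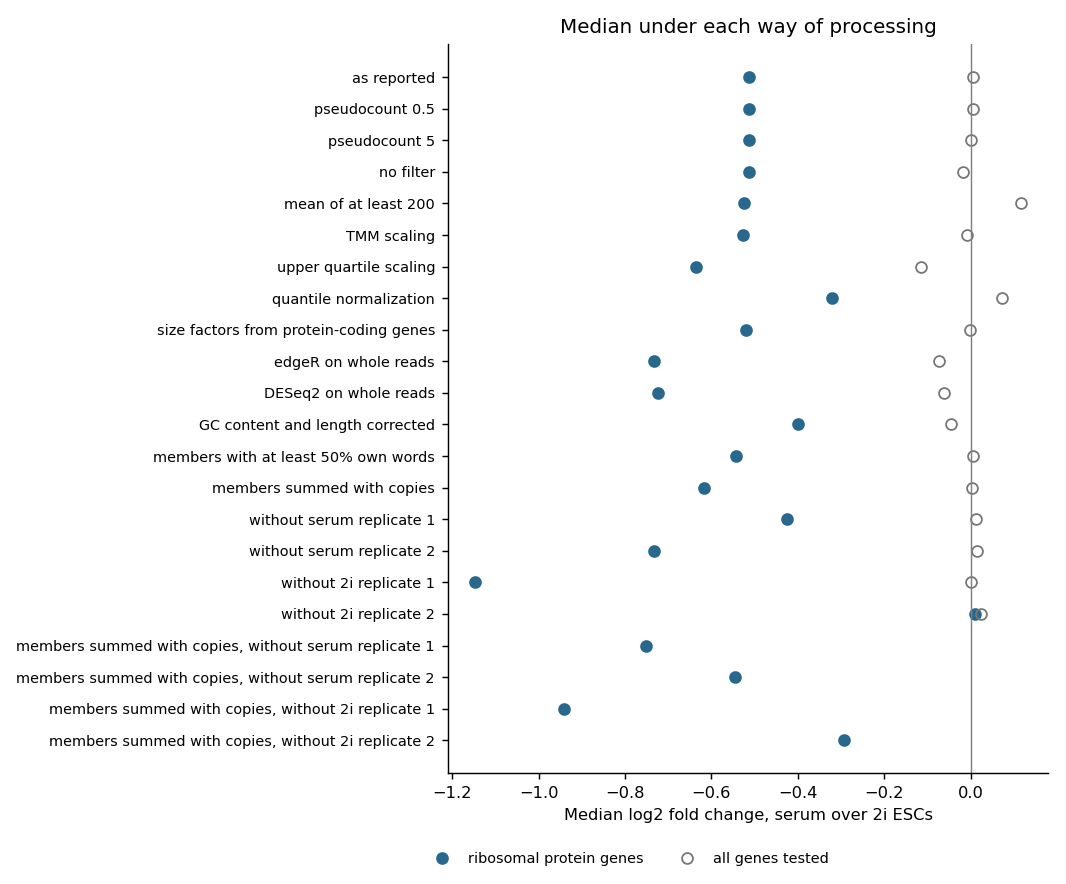
Median log2 fold change of the ribosomal protein genes (filled) and of all genes tested (open) under each way of processing, where copies are rows sharing a member's 43-base words and open circles are not given where no fit over all genes was made. The filled points lie between -1.15 and -0.29 except the one without 2i replicate 2, at 0.01.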

How the data were processed

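RNA-seq of 2 serum and 2 2i libraries was analysed from the table of normalized counts. Total RNA was depleted of ribosomal RNA, and single-end reads of 43 bases were aligned to mm9 with Bowtie and quantified with MMSeq by the authors, who kept genes with 50 reads in either condition. The deposited values are a signal, read counts divided by DESeq2 size factors. Every value was a whole multiple of 1 step per library (within 0.01 reads in 100% of values), which gave whole reads. These are reads as assigned to genes by MMSeq, not a direct count. Of 14533 genes, 14462 matched the annotation. Genes with a mean of at least 50 in either group (13005) were tested with limma 3.58.1 (trend) on log2(normalized count + 1), with Benjamini-Hochberg adjustment over all of them, and the fit was tested on simulated data. Alternatives used edgeR 4.0.16 and DESeq2 1.42.0 on whole reads, other scalings, filters and pseudocounts, a correction for GC content and length (mgcv 1.9.3), each library left out, and sums of members with rows sharing at least 10% of their 43-base words (also 1% and 25%, and the sums with each library left out, chosen after seeing the data). Words were read from GENCODE vM1 transcripts, and counting is not stated to use strand, so overlapping genes are uncertain. Members and lists were chosen with earlier results of these data known. Named with values were the 5 members highest and lowest in mean, in log2 fold change and in replicate difference, those under an unadjusted p of 0.05, role groups, Rps6 and genes of the lists; some of these are not reported here. Labels number the libraries as replicates and the study calls them biological replicates. Separate cultures are not named, so p-values measure the spread between these libraries. The proteins and the chromatin data of the study were not analysed here.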

Additional observations from a re-analysis of the deposited data

How the results depend on the processing

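With 2 libraries per condition, and 2i replicates that differ by more than the conditions, no member passed the adjusted test as reported. The direction of the family median held under every scaling, filter, pseudocount, count model and sum tried, and turned without 2i replicate 2 for the single rows, though not for the sums (-0.29) or the 25 members without sharing rows (-0.18).

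Counts of genes higher in serum and in 2i, 0 and 2 as reported, were 73 and 178 with DESeq2, 0 and 0 with edgeR, where 1 member had an unadjusted p under 0.05, 0 and 4 with a mean of at least 200, and 0 and 1 with GC content and length corrected. The same replicate numbers in both conditions name no shared culture, and replicate 2 minus replicate 1 in serum against the same in 2i gave r = 0.48 (Spearman 0.18) over all 13005 genes and 0.72 over the 78 members. The fit with a replicate block called 44 genes higher in serum and 159 in 2i, Rpl11 (adjusted p = 0.0210) and Myc among them, and left the family median at -0.51. With any 1 library left out, 0 genes were called in either direction.

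Members higher in serum, 8 as reported, numbered 20 with quantile normalization, 13 with GC content and length corrected, 2 with sums at 10% or 1% of words and 4 at 25%, and 6 to 41 with a library left out. With sums they numbered 6 to 22 with a library left out. The family median ranged from -1.15 to 0.011 with a library left out, the large subunit from -1.17 to 0.15 and the small subunit from -1.07 to 0.0046, and for the sums from -0.94 to -0.29, -0.99 to -0.31 and -0.88 to -0.18. Upper quartile scaling moved the median of all genes by -0.12 and that of the family to -0.64.

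Signs of single genes turned as follows. With quantile normalization Rpl17 was at 0.017, Rpl7 0.024, Rps2 0.034, Rpl39l 0.076 and Rpl4 0.67. With GC content and length corrected Rpl34 was at 0.15, Rpl4 0.046 and Rpl5 -0.082. edgeR and DESeq2 gave Fau 1.01 and 1.03, Rps6 0.58 and 0.60, Rps13 0.084 and 0.10, and Rps27a 0.16 and 0.17. Sums at 10%, 1% and 25% of words gave Rpl27 -0.89, -0.89 and -0.12 and Rpl29 -0.082, -0.088 and -0.019, and sums at 10% and 1% gave Rpl21 -0.22 and -0.31, Rpl5 -0.45 and -0.46 and Rps27a 1.35 and 1.35. With a library left out Fau ranged from -5.38 to 3.31, Rpl10l -1.87 to 0.28, Rpl17 -3.41 to 3.02, Rpl21 -0.93 to 1.67, Rpl27 -0.10 to 0.79, Rpl29 -0.94 to 2.50, Rpl34 -0.71 to 0.64, Rpl39l -0.60 to 0.24, Rpl4 -0.28 to 0.18, Rpl5 -0.43 to 1.07, Rpl7 -1.44 to 0.58, Rps12 -3.17 to 1.95, Rps13 -1.73 to 1.24, Rps2 -1.30 to 0.40, Rps27a -1.22 to 1.02, Rps6 -2.97 to 2.19 and Rpsa -1.92 to 1.29. The cause was not tested.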

Other observations

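Introns of ribosomal protein genes also carry small nucleolar RNAs (snoRNAs), which guide chemical modification of ribosomal RNA. The annotation places 58 snoRNA genes inside 30 of the members, and 29 of them, in 20 hosts, were measured. All 29 had lower values in serum, with a median log2 fold change of -2.84 where their hosts had -0.44. In 26 of the 29 the highest library was 2i replicate 1, whereas 14 of the 20 hosts were highest in 2i replicate 2. Snord15b, in an intron of Rps3, had 509 and 92.3 normalized counts in serum against 10821 and 1730 in 2i. Snora52, inside Rplp2, had 214 and 13.6 in serum against 3114 and 156 in 2i. SNORA73 in Rpsa was the most even, with 14512 and 10009 in serum against 13896 and 15170 in 2i. The 115 snoRNAs tested in the whole table had a median of -2.73. Of them, 111 (96.5%) were lower in serum and 96 were highest in 2i replicate 1. The pattern was thus not particular to snoRNAs within these hosts. As a share of all recovered reads, the snoRNA genes of the whole table took 2.54% and 7.56% in serum against 3.66% and 4.69% in 2i. Their total was thus highest in serum replicate 2, unlike the medians over single snoRNAs.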
